A study of Mus musculus with 10 samples.

Results

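Caspases are cysteine proteases that are made as inactive precursors and cut their targets after aspartate. Inflammatory caspases answer to microbial products by maturing interleukin-1 family cytokines and opening gasdermin pores, initiator caspases are switched on in large adaptor complexes, and effector caspases dismantle the cell during apoptosis. Dendritic cells use the inflammatory branch to release cytokines, and the balance of the apoptotic branch bears on how long these short-lived cells survive. The transcripts described here are those of Casp1, Casp2, Casp4, Casp6, Casp8 and Casp9, which are 6 of the 52550 genes in the deposited expression table and were chosen by name as members of 1 family, with earlier results of these data known. All 6 passed the filter on low values. In mice Casp4 encodes the protease known as caspase-11, and it lies beside Casp1 on chromosome 9 (GRCm38, GENCODE M21: Casp1 at chr9:5298517-5307265 and Casp4 at chr9:5308828-5336783, both on the plus strand).

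The cells were spleen precursors of conventional dendritic cells from C57BL/6 mice, either pre-cDC1 (called DN in the sample titles) or pre-cDC2 (called Ly6C). WT mice were compared with CD11c-cre Adam10fl/fl mice, abbreviated KO here, in which Cre under the CD11c promoter recombines a floxed allele of the sheddase gene Adam10 in cells that use this promoter, dendritic cells and others. Each genotype gave 3 libraries of pre-cDC1 and 2 of pre-cDC2, each from total RNA amplified by SMARTSeq v2. The labels give no age or treatment. Their descriptions number the sources within each genotype and use the same numbers for both cell types, but do not say that a number marks 1 mouse, or whether mice were pooled. So p-values measure the spread between these libraries, and libraries of the cell types may share animals.

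Recovered depth was 7861620 to 13177237 reads per library. The summed level of 8 cDC1 markers was 1413 to 1843 RPKM (read density over the gene's length, scaled by sequencing depth) in pre-cDC1 and 151 to 381 RPKM in pre-cDC2, and that of 8 cDC2 and pre-cDC2 markers was 188 to 211 RPKM in WT pre-cDC1, 32.2 to 56.4 RPKM in KO pre-cDC1 and 921 to 1467 RPKM in pre-cDC2. The summed level of 10 T cell markers was 3.99 to 17.6 RPKM in pre-cDC1 but 84.5 RPKM in WT pre-cDC2 replicate 2, 1499 RPKM in WT pre-cDC2 replicate 3, and 1008 to 1157 RPKM in KO pre-cDC2. The summed level of 8 NK cell markers was 6.66 to 25.9 RPKM in pre-cDC1, 45.5 and 985 RPKM in WT pre-cDC2 replicates 2 and 3, and 807 to 927 RPKM in KO pre-cDC2. Of the 10 T cell markers limma called 8 higher in pre-cDC2 of WT and 10 in KO (4.88% and 10.7% of all tested genes), and the defining marker Cd3g had 0 reads in KO pre-cDC1 replicates 1 and 3, as did Cd3e, Trac and Thy1 in replicate 2. Of the 8 NK cell markers limma called 1 higher in pre-cDC2 of WT and 7 in KO (4.88% and 10.7% of all tested genes). The summed levels of both lymphoid lists moved with the comparison of cell types and set WT pre-cDC2 replicate 2 apart. Conventional dendritic cell (DC) markers set that library apart too, at 8868 RPKM against 2857 to 2991 RPKM in the other pre-cDC2 libraries. Plasmacytoid DC markers did so as well, at 870 RPKM against 316 to 459 RPKM. The part of these marker lists in the caspase results was not tested. WT pre-cDC2 replicate 2 correlated with replicate 3 of its group at r = 0.774 over genes, against 0.867 to 0.886 in the other pairs of replicates. Adam10 had 10 to 48 reads per WT library and 3 to 13 per KO library of pre-cDC1, but 228 to 1261 per WT library and 742 to 909 per KO library of pre-cDC2. Neither difference was called between KO and WT (-1.68 ± 0.92 and 1.03 ± 1.12, limma adjusted p = 0.644 and 0.884), and a value over the whole gene does not check the deletion of the floxed part.

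The 6 transcripts together summed to 117 to 166 RPKM per library. Averaged over the 10 libraries, Casp1 stood highest at 5.33 log2 RPKM, above 92.5% of the 14787 genes tested, followed by Casp8 (5.07), Casp2 (4.81), Casp6 (3.61), Casp9 (3.57) and Casp4 (2.01, above 49.8% of tested genes). These levels are scaled by the length of all annotated exons of a gene, from 1497 bases for Casp1 to 7057 for Casp2. Which transcripts were expressed was not measured, so the order between genes is approximate. In all 3 WT pre-cDC1 libraries the order from high to low was Casp1, Casp2, Casp8, Casp6, Casp9 and Casp4, and no neighbours in it overlapped. In KO pre-cDC1 the upper 5 overlapped from neighbour to neighbour, and Casp4 alone stood apart below them. In KO pre-cDC2 the order was Casp8, Casp1, Casp2 and Casp9, with Casp6 and Casp4 overlapping at the bottom. In WT pre-cDC2 the ranges of Casp8, Casp1 and Casp2 overlapped from neighbour to neighbour, as did those of Casp6 and Casp4. Between libraries Casp6 moved over the widest span, 2.62 on the log2 scale, and Casp2 over the narrowest, 0.49.

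**Figure D1:**
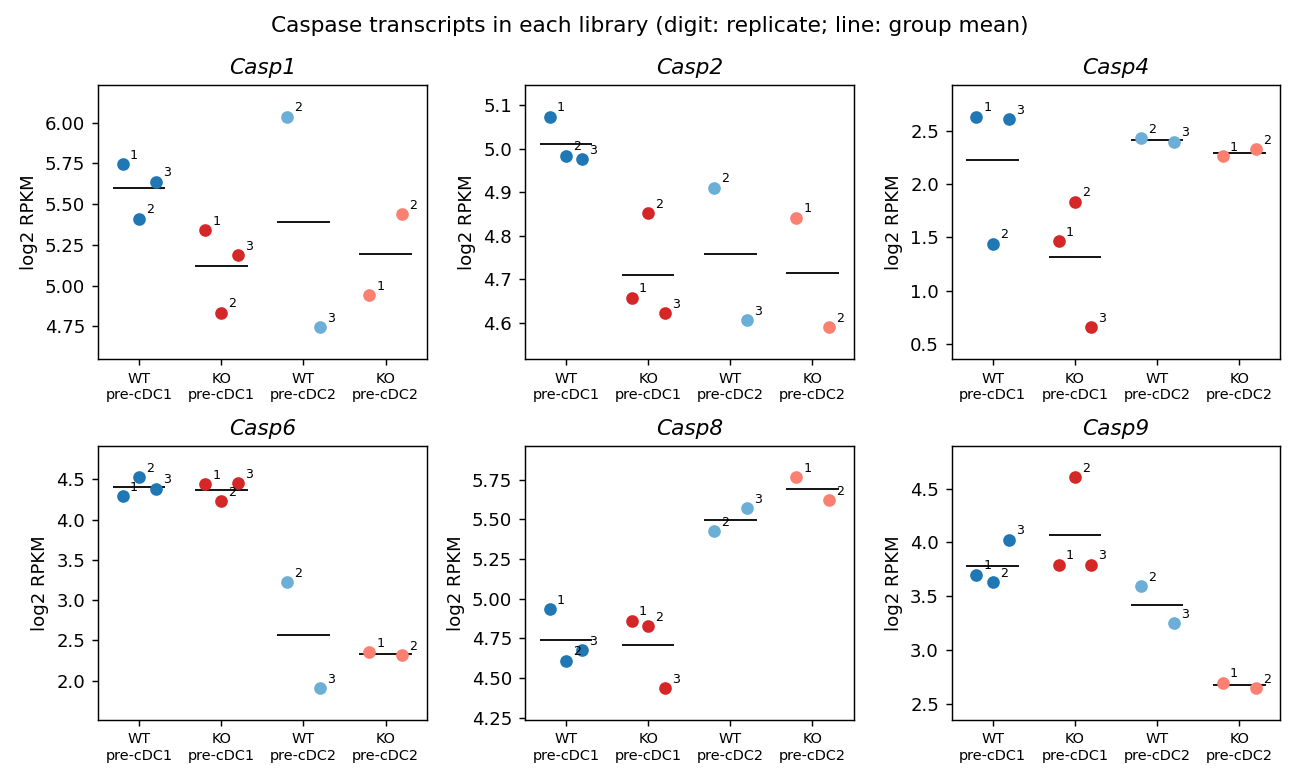
Level of each of the 6 caspase transcripts in every library (vertical axis log2 RPKM, with its own range in each panel; horizontal axis the 4 groups; digit, replicate; line, group mean). Casp6 was at 4.23 to 4.53 in the 6 pre-cDC1 libraries and at 1.91 to 3.22 in the 4 pre-cDC2 libraries, Casp8 showed the opposite order, and Casp1 and Casp2 overlapped between the cell types when both genotypes were pooled.

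Between KO and WT, limma called none of the 6 caspases at an adjusted p below 0.05, in pre-cDC1 or in pre-cDC2. In pre-cDC1 the background was 0.0271% of tested genes called, so a count of 0 of 6 is close to it, and 1335 of 14787 genes had an unadjusted p below 0.05. In pre-cDC2 the background was 0.0676%, with 987 genes at an unadjusted p below 0.05. Of the 6 caspases, 1 had an unadjusted p below 0.05 in pre-cDC1 (Casp4) and 1 in pre-cDC2 (Casp9), and voom on recovered reads called 0 in both. More calls fell between the cell types: 2 of 6 caspases were called between pre-cDC2 and pre-cDC1 of WT mice (background 11.5%) and 3 of 6 between those of KO mice (background 20.8%). In WT, 1 was higher in pre-cDC2 (Casp8, background 4.88%) and 1 lower (Casp6, background 6.59%). In KO, 1 was higher (Casp8, background 10.7%) and 2 were lower (Casp6 and Casp9, background 10.1%). No test sets these shares of the 6 apart from the background. These comparisons share libraries, so the values of each stand side by side and are not independent of each other.

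The inflammatory caspases come first. Casp1 encodes the protease that inflammasomes activate to mature IL-1β and IL-18. In pre-cDC1 its level was 5.75, 5.41 and 5.64 log2 RPKM in WT replicates 1 to 3 and 5.34, 4.83 and 5.19 in KO replicates 1 to 3. Every KO library lay below every WT library. The difference was -0.48 ± 0.30 (log2 difference of KO minus WT ± SE, limma adjusted p = 0.713), so the call was not reached. The pre-cDC2 libraries had 6.04 and 4.74 log2 RPKM of Casp1 (WT) against 4.94 and 5.44 (KO), and both KO libraries lay between the WT ones. WT pre-cDC2 replicate 2, which had the lowest summed T cell marker level in pre-cDC2, held the highest Casp1 level of the series. Here KO minus WT was -0.20 ± 0.37 (limma adjusted p = 0.946), and its sign depended on which WT library was kept: it was -0.85 without replicate 3 and 0.45 without replicate 2. From pre-cDC1 to pre-cDC2 Casp1 differed by -0.21 ± 0.34 in WT (limma adjusted p = 0.76) and by 0.07 ± 0.34 in KO (limma adjusted p = 0.915). The sign of the WT value also turned with the library kept, from -0.86 without replicate 2 to 0.44 without replicate 3 of WT pre-cDC2.

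Casp4 encodes the sensor of cytosolic lipopolysaccharide, which cuts gasdermin D without an inflammasome adaptor. Its level in pre-cDC1 was 2.64, 1.44 and 2.61 log2 RPKM in WT replicates 1 to 3 and 1.46, 1.84 and 0.65 in KO replicates 1 to 3, from 44 to 231 reads. WT replicate 2 was as low as the KO libraries, so the groups overlapped. KO minus WT was -0.91 ± 0.40 (limma adjusted p = 0.548), the largest difference in size among the 6 in this comparison, and leaving out single libraries gave -1.31 to -0.58. The 4 pre-cDC2 libraries were nearly level, WT at 2.43 and 2.40 log2 RPKM and KO at 2.27 and 2.33. The KO libraries lay just below the WT ones, by 0.12 on average, with an SE of 0.49 (limma adjusted p = 0.988). From pre-cDC1 to pre-cDC2 Casp4 differed by 0.98 ± 0.45 in KO (limma adjusted p = 0.164), where both pre-cDC2 libraries lay above all 3 of pre-cDC1, and by 0.19 ± 0.45 in WT, where they did not. Casp12, the next gene along chromosome 9, had 24 reads in WT pre-cDC1 replicate 3, 22 and 5 reads in WT pre-cDC2, 1 read in KO pre-cDC1 replicate 2 and 0 elsewhere, and did not pass the filter on low values. Casp14, the caspase of keratinocytes, had 0 reads in all 10 libraries, which allows up to 3 reads in each for counting error only.

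Of 12 genes for inflammasome sensors and adaptors, 11 were tested, and limma called 0 between KO and WT in either cell type, with 0 at an unadjusted p below 0.05 and 0 by voom. The smallest p belonged to Naip2, a receptor for bacterial secretion systems, in pre-cDC1 (-0.35 ± 0.20, limma adjusted p = 0.68), and to Nlrp1a, a sensor activated by proteolysis, in pre-cDC2 (3.57 ± 1.73, limma adjusted p = 0.768). The Nlrp1a value is no measure of size, since WT pre-cDC2 replicate 3 had 0 reads of it, and the call was reached without replicate 2 of that group. Only Nlrp1a of the 11 was called by limma between the cell types of WT, lower in pre-cDC2 (background 6.59%; voom called 3; median of the 11 -0.81, against 0.0588 for all tested genes), with 168 to 187 reads in WT pre-cDC1 and 46 and 0 reads in WT pre-cDC2. That call was lost in 12 of 19 alternatives. In KO 5 of 11 were called, all lower in pre-cDC2, as were 10.1% of all tested genes (median of the 11 -1.26, against 0.09 for all). Among them was Nlrp3, the sensor of membrane damage and potassium efflux, at 2.35, 2.51 and 2.66 log2 RPKM in KO pre-cDC1 and 0.52 and 1.21 in KO pre-cDC2 (-1.64 ± 0.43, limma adjusted p = 0.0242). Aim2, the sensor of cytosolic DNA, differed by -1.08 ± 0.28 (limma adjusted p = 0.0243), and Naip5, a flagellin receptor, by -1.14 ± 0.32 (limma adjusted p = 0.0321). Nlrp1b, a sensor close in sequence to Nlrp1a so that their reads may be split between them, had 489 to 713 reads in KO pre-cDC1 and 0 and 26 in KO pre-cDC2. The call of Nlrp1b was lost in 3 of 19 alternatives, that of Aim2 in 6, that of Nlrp3 in 7 and that of Naip5 in 8. Pycard, the adaptor ASC that links sensors to caspase-1, went the other way without a call, at 0.63 ± 0.20 in KO (limma adjusted p = 0.0543).

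Of 6 genes for substrates of inflammatory caspases and for pore or membrane rupture proteins, 5 were tested. Between KO and WT limma again called 0 (1 at an unadjusted p below 0.05 in each cell type, 0 by voom). The smallest p in both cell types was that of Ninj1, which drives the rupture of the plasma membrane after pores have opened. Its pre-cDC1 level was 3.67, 3.19 and 3.52 log2 RPKM (WT) and 2.96, 2.78 and 3.04 (KO), and its pre-cDC2 level 4.37 and 3.97 (WT) and 3.19 and 3.15 (KO). All KO libraries lay below the WT libraries of their cell type. KO minus WT was -0.53 ± 0.19 in pre-cDC1 (limma adjusted p = 0.409) and -1.002 ± 0.23 in pre-cDC2 (limma adjusted p = 0.342). Without WT pre-cDC2 replicate 3 the value in pre-cDC2 was -1.20, with 1 WT library left in the group. Leaving out single libraries gave -1.20 to -0.80 there.

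In the comparison of the cell types 3 of these 5 were called lower in pre-cDC2 of WT (median -1.56, background 6.59%) and 4 in KO (median -1.48, background 10.1%). Il1b, the cytokine that caspase-1 matures, was at 5.85, 5.68 and 5.88 log2 RPKM in WT pre-cDC1 and 4.17 and 2.25 in WT pre-cDC2 (-2.59 ± 0.43, limma adjusted p = 0.00556). In KO it was at 5.33, 5.22 and 5.41 in pre-cDC1 and 2.83 and 3.21 in pre-cDC2 (-2.30 ± 0.43, limma adjusted p = 0.00552). Il18, the other cytokine of this protease, had 222 to 337 reads in pre-cDC1 and 61, 3, 12 and 13 in pre-cDC2, with differences of -4.57 ± 0.86 in WT and -4.47 ± 0.86 in KO (limma adjusted p = 0.00961 and 0.00609). Gsdme, another pore-forming gasdermin, was lower by 1.56 ± 0.33 in WT and by 1.48 ± 0.33 in KO on the log2 scale (limma adjusted p = 0.017 and 0.0131). Gsdmd, the gasdermin of caspases 1 and 11, was called in KO only (-0.70 ± 0.20, limma adjusted p = 0.0338), but its interaction of genotype with cell type was -0.19 ± 0.28 (limma adjusted p = 0.997), and its call was lost in 11 of 19 alternatives. The calls of Il1b and Il18 were each lost in 3 of 19 alternatives in both genotypes, and those of Gsdme in 6 of 19 in WT and 4 of 19 in KO.

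Of 9 GTPases of the GBP and IRG families, which expose lipopolysaccharide to caspase-11, 8 were tested and limma called 0 between KO and WT (0 at an unadjusted p below 0.05, 0 by voom). In pre-cDC2 against pre-cDC1 2 were called higher in WT (median of the 8 1.29, background 4.88%) and 3 in KO (median 1.95, background 10.7%). Gbp3 in pre-cDC1 was at 0.38, 1.44 and 1.27 log2 RPKM (WT) and -0.15, 1.17 and 0.47 (KO), against 2.87 and 3.93 (WT) and 3.33 and 3.85 (KO) in pre-cDC2. The differences were 2.37 ± 0.51 and 3.09 ± 0.51 (limma adjusted p = 0.0171 and 0.0027). The WT call of Gbp3 was lost in 5 of 19 alternatives, among them those without WT pre-cDC1 replicate 1 (limma adjusted p = 0.0534) and without WT pre-cDC2 replicate 3 (limma adjusted p = 0.114), and the KO call in 0. Gbp7 had 1 to 52 reads per pre-cDC1 library, 310 in WT pre-cDC2 replicate 2 and 1194 to 1389 in the other 3 of pre-cDC2, and was called in both genotypes (limma adjusted p = 0.0127 and 0.016). Its call was lost in 3 of 19 alternatives in WT, among them that without WT pre-cDC2 replicate 3 (limma adjusted p = 0.0953), and in 4 of 19 in KO, among them those without pre-cDC2 replicate 1 or 2 or pre-cDC1 replicate 1 of KO (limma adjusted p = 0.108, 0.0946 and 0.051). Gbp2 also set WT pre-cDC2 replicate 2 apart from its group: it was at 1.80 log2 RPKM there, within the pre-cDC1 range of 1.53 to 2.58, and at 4.82, 4.75 and 4.76 in the other 3 pre-cDC2 libraries. The call for Gbp2 in KO (2.85 ± 0.72, limma adjusted p = 0.0213) was lost in 6 of 19 alternatives. The T cell marker level moved with those of Gbp2 and Gbp7 across the pre-cDC2 libraries, and its part in these results was not tested.

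Among the initiators, Casp8 encodes the protease that death receptors recruit through FADD, and which also holds necroptosis in check. It was the caspase called higher in pre-cDC2. Its level was 4.93, 4.61 and 4.67 log2 RPKM in WT pre-cDC1 replicates 1 to 3, and 4.86, 4.83 and 4.44 in KO pre-cDC1 replicates 1 to 3. In pre-cDC2 it was 5.43 and 5.57 in WT and 5.77 and 5.62 in KO. All 4 pre-cDC2 libraries lay above all 6 of pre-cDC1. The difference was 0.76 ± 0.17 in WT (1.69-fold, limma adjusted p = 0.0221) and 0.98 ± 0.17 in KO (1.98-fold, limma adjusted p = 0.00389). Casp8 was the highest of the 6 transcripts in 3 of 4 pre-cDC2 libraries, all but WT replicate 2, whereas Casp1 was the highest in 5 of 6 pre-cDC1 libraries. Its share of the summed RPKM of the 6 was 17% to 21.8% for pre-cDC1 libraries against 26% to 41.8% for pre-cDC2. KO minus WT was -0.03 ± 0.15 in pre-cDC1 (limma adjusted p = 1), where the groups overlapped, and 0.19 ± 0.19 in pre-cDC2 (limma adjusted p = 0.868), where both KO libraries lay above both WT ones.

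Apart from the replicate blocks, the WT call for Casp8 was lost without WT pre-cDC1 replicate 2 (0.69, limma adjusted p = 0.0732) or 3 (0.73, limma adjusted p = 0.0675), without WT pre-cDC2 replicate 3 (0.69, limma adjusted p = 0.0824), with no filter (limma adjusted p = 0.128) and with only the compared groups in the fit (limma adjusted p = 0.0794). The KO call was kept under each of these. Both Casp8 calls were lost with the replicate block by genotype and number (limma adjusted p = 0.107 in WT and 0.0622 in KO). In WT pre-cDC2 replicate 2, where T cell markers summed to 84.5 RPKM against 1008 to 1499 RPKM in the other pre-cDC2 libraries, Casp8 was at 5.43 log2 RPKM, against 4.44 to 4.93 in pre-cDC1. The part of these markers in the difference was not tested. In bulk RNA a change in the number of cells of a type and a change in RNA per cell cannot be told apart.

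The promoters of Casp8, Casp6 and Casp9 are shown because these are the 3 transcripts called between the cell types. Each is the 250 bases before the RefSeq transcription start (GRCm38.p6, plus strand, written 5′ to 3′): chr1:58802252-58802501 for Casp8, chr3:129901165-129901414 for Casp6 and chr4:141793362-141793611 for Casp9. Capitals mark matches on either strand to AANNGAAA, a core read by interferon regulatory factors, or to GGGCGG, the GC box read by SP family factors. No match to one overlaps a match to the other in these windows. The RefSeq start used for Casp8 lies inside the GENCODE gene, which begins further upstream at 58795374.
Casp8: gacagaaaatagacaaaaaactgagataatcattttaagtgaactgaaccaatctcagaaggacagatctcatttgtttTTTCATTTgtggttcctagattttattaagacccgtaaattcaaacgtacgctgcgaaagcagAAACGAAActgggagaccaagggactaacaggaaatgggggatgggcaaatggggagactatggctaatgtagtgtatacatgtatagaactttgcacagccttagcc
Casp6: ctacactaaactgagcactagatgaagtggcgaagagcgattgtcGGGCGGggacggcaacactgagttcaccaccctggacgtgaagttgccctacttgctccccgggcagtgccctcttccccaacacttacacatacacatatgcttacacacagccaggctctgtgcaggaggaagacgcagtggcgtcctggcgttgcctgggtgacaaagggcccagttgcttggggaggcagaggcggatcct
Casp9: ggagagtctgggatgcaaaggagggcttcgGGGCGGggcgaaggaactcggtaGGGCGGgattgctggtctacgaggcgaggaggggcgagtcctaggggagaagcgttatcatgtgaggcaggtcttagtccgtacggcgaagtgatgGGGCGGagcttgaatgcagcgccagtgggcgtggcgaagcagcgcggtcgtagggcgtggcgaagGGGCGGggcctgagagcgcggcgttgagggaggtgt
The Casp8 window held 2 matches to AANNGAAA and 0 to GGGCGG, and its GC content was 39.6%, against a median of 52% over 27025 mouse promoter windows of this length. The Casp6 window held 1 GC box at 58.4% GC, and the Casp9 window 4 GC boxes at 66% GC, with 0 matches to AANNGAAA in either. Of all windows 21.6% held AANNGAAA and 32.9% held GGGCGG, so both are common. TTCNNNGAA, the core read by STAT factors, was in 7.18% of windows and in 0 of the 6 caspase windows. Of the other 3, Casp4 held 1 AANNGAAA, Casp2 held 1 GGGCGG, and Casp1 held neither. These are matches of letters only, and no binding was measured.

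Of 12 genes for death receptors and the caspase-8 complex, all tested, limma and voom called 0 in each of the 4 comparisons. The background between KO and WT was 0.0271% in pre-cDC1 and 0.0676% in pre-cDC2, so 0 is close to it there. Between the cell types it was 11.5% in WT and 20.8% in KO. In limma 2 of the 12 had an unadjusted p below 0.05 between the cell types in KO, and 0 in the other 3 comparisons. Medians ran from -0.14 to 0.09. Cflar, the catalytically inactive relative of caspase-8 that restrains it, had the smallest p between the cell types in KO (0.73 ± 0.30, limma adjusted p = 0.12), where both pre-cDC2 libraries lay above those of pre-cDC1. Cyld, a deubiquitinase of the TNF receptor complex, had it in WT (-0.47 ± 0.22, limma adjusted p = 0.23). Between KO and WT the smallest p belonged to Traf2, an adaptor of TNF receptors, in pre-cDC1 (-0.48 ± 0.23, limma adjusted p = 0.585) and to Tnfrsf1a, the TNF receptor with a death domain, in pre-cDC2 (-0.78 ± 0.36, limma adjusted p = 0.761). Of the 3 necroptosis genes, limma and voom called 0 in these comparisons against the same backgrounds, with 0 at an unadjusted p below 0.05. Ripk3, the kinase that caspase-8 keeps inactive, was at 4.50 to 4.98 log2 RPKM in pre-cDC1. The pre-cDC2 libraries had 3.57 and 5.13 (WT) and 4.47 and 4.26 (KO). The sign of Ripk3 in WT turned with the pre-cDC2 library kept (-1.08 without replicate 3 and 0.49 without replicate 2). In KO Ripk3 differed by -0.48 (limma adjusted p = 0.4), and reached the call when WT pre-cDC2 replicate 2 or 3 was left out of the fit (limma adjusted p = 0.0421 and 0.0435). Mlkl, the pore former of necroptosis, had the smallest p of the 3 between KO and WT, at -0.68 ± 0.37 in pre-cDC1 and -0.58 ± 0.45 in pre-cDC2 (limma adjusted p = 0.645 and 0.848).

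Casp9 encodes the initiator that the apoptosome activates once cytochrome c leaves mitochondria. In pre-cDC1 its level was 3.70, 3.63 and 4.02 log2 RPKM in WT replicates 1 to 3 and 3.79, 4.60 and 3.79 in KO replicates 1 to 3. In pre-cDC2 it was 3.59 and 3.25 in WT and 2.70 and 2.65 in KO. KO pre-cDC1 replicate 2 stood above the rest, WT pre-cDC2 lay just below WT pre-cDC1, and KO pre-cDC2 lay below every other library. The cell types differed by -1.39 ± 0.27 in KO (2.62-fold lower, limma adjusted p = 0.00632) and -0.36 ± 0.27 in WT (limma adjusted p = 0.455). The KO call was lost without KO pre-cDC2 replicate 2 and with no filter (limma adjusted p = 0.0764). It was also lost with the replicate block by genotype and number (limma adjusted p = 0.0622). The difference between these differences, the interaction, was -1.03 ± 0.38 with an unadjusted p of 0.0236 and a limma adjusted p of 0.952, so a different effect of cell type in the genotypes was not shown.

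Seen by genotype, Casp9 in pre-cDC2 was -0.75 ± 0.30 in KO relative to WT (unadjusted p = 0.0308, limma adjusted p = 0.693), with both KO libraries below both WT ones. In pre-cDC1 it was 0.28 ± 0.24 (limma adjusted p = 0.822), which fell to 0.01 without KO replicate 2. No exon of the other 5 caspases overlaps another gene in GENCODE M21, but exons of Casp9 overlap those of Cela2a and Ctrc, digestive enzyme genes on the opposite strand. These had at most 1 and 3 reads in any library, against 284 to 1242 for Casp9.

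Of 6 apoptosome and mitochondrial genes, all tested, 2 were called between the cell types in WT, both lower in pre-cDC2 (median of the 6 -0.59, background 6.59%), and 0 in KO (median -0.48, background 20.8%, 2 at an unadjusted p below 0.05, 0 by voom). Htra2, a mitochondrial protease that counters inhibitors of apoptosis, differed by -1.01 ± 0.23 in WT (limma adjusted p = 0.0204) and by -0.70 ± 0.23 in KO (limma adjusted p = 0.0551). Cycs, cytochrome c, differed by -0.79 ± 0.20 in WT (limma adjusted p = 0.0328) and by -0.55 ± 0.20 in KO (limma adjusted p = 0.0841). The WT call was lost in 7 of 19 alternatives for Htra2 and in 10 of 19 for Cycs, while Htra2 reached the call in KO in 5 of 19: with quantile normalization (limma adjusted p = 0.0314), with centring (limma adjusted p = 0.0244), and without WT pre-cDC2 replicate 2 or 3 or KO pre-cDC2 replicate 1 (limma adjusted p = 0.034, 0.033 and 0.0457). In the comparison of KO with WT limma called 0 of 6 (0 at an unadjusted p below 0.05, 0 by voom). Htra2 in pre-cDC1 (-0.39 ± 0.20, limma adjusted p = 0.626) and Cycs in pre-cDC2 (0.39 ± 0.22, limma adjusted p = 0.806) came closest. Of 4 inhibitors of apoptosis, Birc3, a ubiquitin ligase of TNF signalling, was called lower in pre-cDC2 of KO (-0.73 ± 0.20, limma adjusted p = 0.032, background 10.1%), a call lost in 7 of 19 alternatives. In WT limma and voom called 0 of 4, with 1 at an unadjusted p below 0.05. Birc3 was at -0.50 ± 0.20 there (limma adjusted p = 0.157), and at -0.76 without WT pre-cDC2 replicate 2.

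Casp2 encodes the initiator that the PIDDosome activates, among others after failed cell division. Its level was 5.07, 4.98 and 4.98 log2 RPKM in WT pre-cDC1 replicates 1 to 3 and 4.66, 4.85 and 4.62 in KO pre-cDC1 replicates 1 to 3. In pre-cDC2 it was 4.91 and 4.61 in WT and 4.84 and 4.59 in KO. Of the 10 libraries the 3 of WT pre-cDC1 were the highest. KO minus WT in pre-cDC1 was -0.30 ± 0.14 (limma adjusted p = 0.56), and leaving out single libraries gave -0.37 to -0.26. In pre-cDC2 it was -0.04 ± 0.17 (limma adjusted p = 0.985). From pre-cDC1 to pre-cDC2 it was -0.25 ± 0.15 in WT (limma adjusted p = 0.351) and 0.01 ± 0.15 in KO (limma adjusted p = 0.991). Of the 2 genes of its platform, Pidd1 and Cradd, limma and voom called 0 in each comparison, with 0 at an unadjusted p below 0.05. The background ran from 0.0203% in the interaction of genotype and cell type to 20.8% between the cell types in KO. Cradd, the adaptor between PIDD1 and caspase-2, was at -0.72 ± 0.47 in pre-cDC1 of KO relative to WT (limma adjusted p = 0.728).

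Counting groups that did not overlap gives a second view of genotype. In pre-cDC1 2 of 6 caspases separated, Casp1 and Casp2, both lower in KO, where 17.2% of all tested genes separated in either direction and 9.27% downwards. In pre-cDC2 3 of 6 separated against a background of 30.2%: Casp8 upwards (background 15.6%), and Casp4 and Casp9 downwards (background 14.6%). The median difference of the 6 was -0.17 in pre-cDC1 and -0.16 in pre-cDC2, against -0.00384 and 0.00481 over all tested genes. In the comparison of cell types 4 of 6 separated in WT (background 38.7%) and 4 of 6 in KO (background 51.7%). The median of the 6 was -0.23 in WT and 0.04 in KO, against 0.0588 and 0.09 over all tested genes. Casp6 and Casp8 differed in opposite directions, and the median shows neither. Marker levels differed by genotype as well, mostly without a call. The 8 erythroid markers summed to 14.9 to 23.4 RPKM in WT and 39 to 75.6 RPKM in KO for pre-cDC1. For pre-cDC2 they summed to 5.39 to 6.47 RPKM and 32.3 to 65 RPKM, and limma called 2 higher in KO (background 0.0676%). All 10 T cell markers and all 8 NK cell markers had a lower mean in KO pre-cDC1 and a higher one in KO pre-cDC2. For both lists the KO pre-cDC2 sums lay between those of WT pre-cDC2 replicates 2 and 3. All 7 tested cDC2 and pre-cDC2 markers had a lower mean in KO pre-cDC1 (median difference -2.42) and in KO pre-cDC2 (median -0.33), and all 5 tested B cell markers in KO pre-cDC1 (median -3.25). All 8 cDC1 markers had a higher mean in KO pre-cDC1 (median 0.445). Of all tested genes 47.8% had a higher mean in KO pre-cDC1 and 50.6% in KO pre-cDC2. In neither cell type did limma call any T cell, NK cell, cDC1, cDC2 or B cell marker between KO and WT. The part of these markers in the caspase values was not tested.

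**Figure D2:**
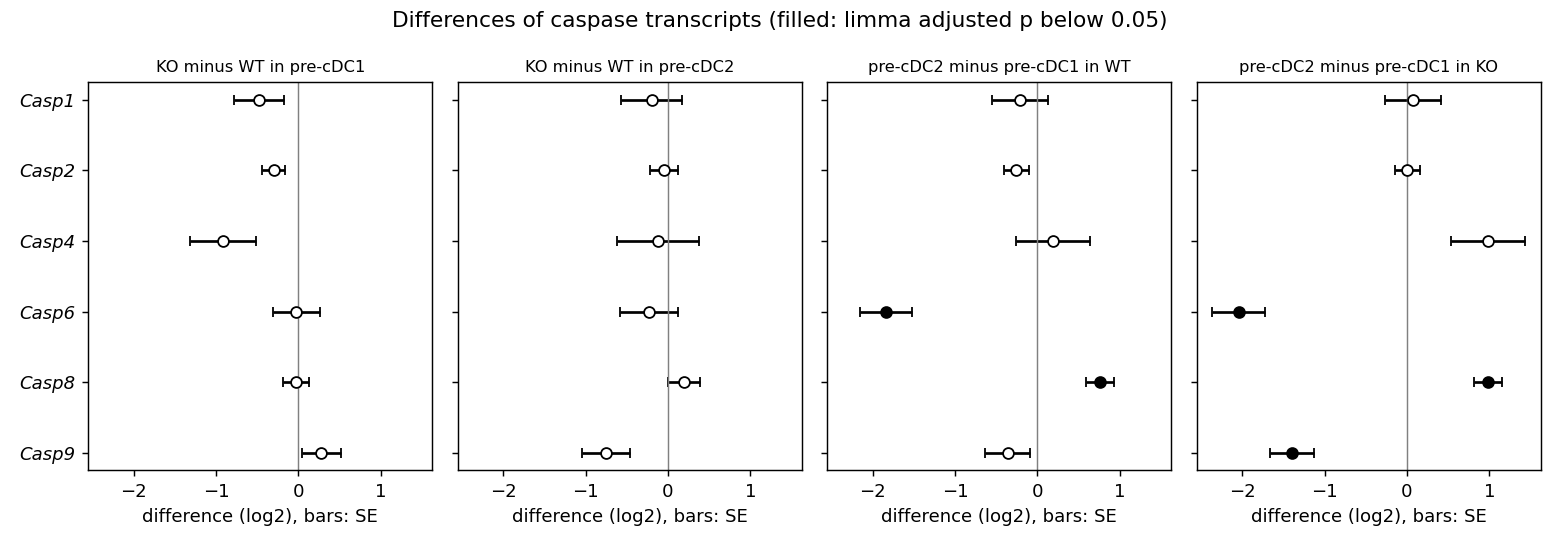
Differences of the 6 caspases in the 4 comparisons (horizontal axis log2 difference, point and SE; filled, limma adjusted p below 0.05). Both panels of genotype hold open points only, while Casp6 and Casp8 are filled in both panels of cell type and Casp9 in that of KO.

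Casp6 encodes an effector caspase, known for cutting lamin A. It differed most between the cell types. Its level was 4.29, 4.53 and 4.39 log2 RPKM in WT pre-cDC1 replicates 1 to 3 and 4.44, 4.23 and 4.46 in KO pre-cDC1 replicates 1 to 3. The pre-cDC2 libraries had 3.22 (WT replicate 2), 1.91 (WT replicate 3), 2.35 and 2.32 (KO). Every pre-cDC2 library lay below every pre-cDC1 library, and WT pre-cDC2 replicate 2 lay between the pre-cDC1 range and the other 3. The difference was -1.84 ± 0.32 in WT (3.58-fold lower, limma adjusted p = 0.00666) and -2.04 ± 0.32 in KO (4.11-fold lower, limma adjusted p = 0.00215). The WT value was -2.49 without WT pre-cDC2 replicate 2 and -1.18 without replicate 3, and the call was kept when any single library was left out (largest limma adjusted p = 0.0281). The WT call was lost with no filter (limma adjusted p = 0.0951) and with only the compared groups in the fit (limma adjusted p = 0.0933). It was also lost with the replicate block by genotype and number (limma adjusted p = 0.0847). The KO call was kept in all 19 alternatives.

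Between KO and WT, Casp6 in pre-cDC1 differed by -0.03 ± 0.29 (limma adjusted p = 1), with overlapping groups. In pre-cDC2 the value was -0.23 ± 0.35 (limma adjusted p = 0.926) and rested on which WT library was kept. Without WT replicate 3 it was -0.89 and without WT replicate 2 it was 0.43, each with 1 WT library left. The 2 WT libraries, replicates 2 and 3, also differed in T cell markers (84.5 against 1499 RPKM) and conventional DC markers (8868 against 2935 RPKM). The part of these markers in the value was not tested.

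Casp6 and Casp8 moved in opposite directions within a library. Casp6 minus Casp8 was -0.64 to 0.02 on the log2 scale in the 6 pre-cDC1 libraries and -2.21, -3.66, -3.41 and -3.30 in the 4 pre-cDC2 libraries, a ratio that no scaling factor per library can alter. The share of Casp6 in the summed RPKM of the 6 was 12.5% to 18.3% for pre-cDC1 libraries against 3.2% to 5.63% for pre-cDC2. Over the 10 libraries the Pearson r of Casp6 with Casp8 was -0.939 and with Casp9 0.777, and that of Casp8 with Casp9 was -0.763. These values describe libraries of 2 cell types and share their depth and marker differences. Casp1 correlated weakly with Casp6 (0.316), Casp8 (-0.143) and Casp9 (0.0431).

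**Figure D3:**
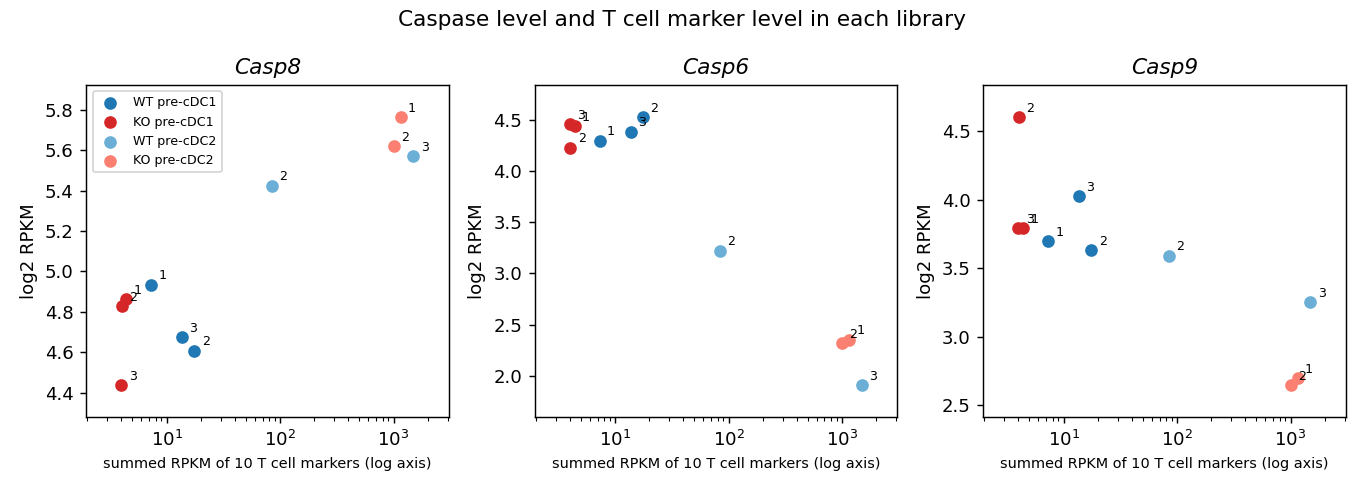
Level of Casp8, Casp6 and Casp9 (vertical axis log2 RPKM) against the summed RPKM of 10 T cell markers (horizontal axis, log scale) in each library, coloured by group and numbered by replicate. WT pre-cDC2 replicate 2, at 84.5 RPKM of T cell markers, lay with pre-cDC2 for Casp8 (5.43), between the cell types for Casp6 (3.22) and at the lower edge of pre-cDC1 for Casp9 (3.59).

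Of 11 substrates of effector caspases, all tested, 1 was called between the cell types in WT (median of the 11 0.06, background 11.5%) and 3 in KO (median 0.13, background 20.8%), shares near those over all tested genes. Panx1, the channel that cleavage opens to release find-me signals, was higher in pre-cDC2 of both genotypes. In pre-cDC1 it was at 1.97, 2.05 and 1.88 (WT) and 2.20, 1.74 and 1.38 (KO) log2 RPKM, and in pre-cDC2 at 3.87 and 4.13 (WT) and 3.71 and 3.78 (KO). All 4 pre-cDC2 libraries, WT replicate 2 included, lay well above all 6 of pre-cDC1. The differences were 2.03 ± 0.26 in WT and 1.97 ± 0.26 in KO (limma adjusted p = 0.00145 and 0.000901). Lmnb1, the nuclear lamin B1, was called lower in pre-cDC2 of KO (-1.23 ± 0.23, limma adjusted p = 0.00522), as was Gsn, the actin-severing gelsolin (-1.40 ± 0.38, limma adjusted p = 0.0282). The call of Gsn was lost in 6 of 19 alternatives and that of Lmnb1 in 1. Panx1 lost its WT call in 1 of 19, the replicate block by genotype and number (limma adjusted p = 0.0613), and its KO call in 0. Between KO and WT limma and voom called 0 of 11, with 2 at an unadjusted p below 0.05 in pre-cDC1 and 0 in pre-cDC2. Dffb, the DNase of apoptosis, came closest in pre-cDC1 (-0.49 ± 0.19, limma adjusted p = 0.48), and Pak2, a kinase activated by cleavage, in pre-cDC2 (0.29 ± 0.17, limma adjusted p = 0.822).

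**Figure D4:**
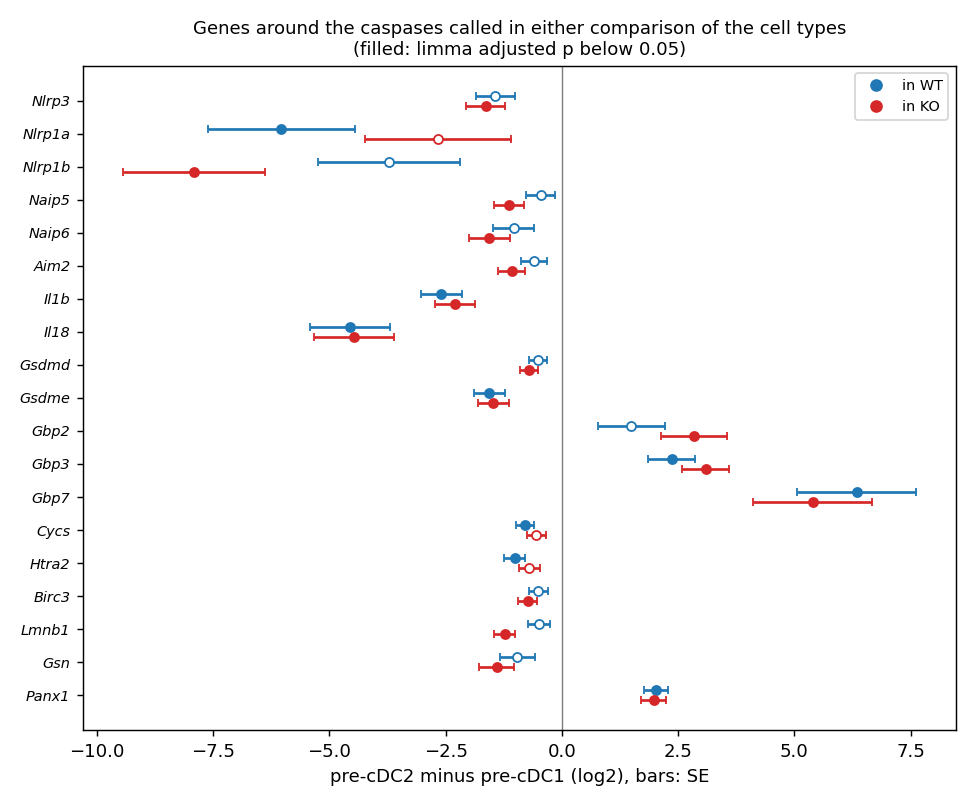
Genes around the 6 caspases that were called in at least 1 comparison of the cell types (horizontal axis pre-cDC2 minus pre-cDC1 as log2 difference; point and SE; blue, WT; red, KO; filled, limma adjusted p below 0.05). Points of the sensors and cytokines lie left of 0, and those of Gbp2, Gbp3, Gbp7 and Panx1 lie right of it.

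No caspase was called in the interaction of genotype and cell type (background 0.0203%, with 713 of 14787 genes at an unadjusted p below 0.05), and voom called 0 of the 6 as well. After Casp9, the widest value was that of Casp4 at 0.79 ± 0.64 (limma adjusted p = 0.987).

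The genes most like each caspase were ranked by Pearson r over the 10 libraries among 8576 tested genes whose mean reached 1 log2 RPKM. For Casp6 they were Ffar4, Cxcl16 and Cpq, with r of 0.995, 0.995 and 0.994. For Casp8 they were Lgals8, Scamp3 and Gtf2i, with r of 0.981, 0.977 and 0.969. Those of Casp9 were Gys1, Mapkap1 and Vav2 (r of 0.957, 0.943 and 0.943). For the caspases not called between the cell types, they were Pitpna, Smim10l1 and Fam69a with Casp1 (0.938, 0.922 and 0.917), Hgs, Rel and Ifitm6 with Casp2 (0.906, 0.902 and 0.881), and Zfp646, Cnot2 and Elmod3 with Casp4 (0.943, 0.9 and 0.899). These r values describe patterns over the same libraries.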

How the data were processed

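The authors deposited 1 table of log2 RPKM values for 52550 genes in 10 libraries. STAR 2.3, featureCounts 1.5.0, edgeR and R 3.3.3, with the build GRCm38 (mm10), are named per the submitters' processing notes. Annotation release, strand setting and cell sorting: not given in the sources used here. Gene lengths from GENCODE M21, which held 49035 of the identifiers, turned 100% of their deposited log2 RPKM values into whole reads within 0.001 reads, with a mean offset of 0.245 reads. Reads were also solved for 3425 further genes. Recovered reads served for depth and for voom, and cover counting error only, since no molecular identifiers were used.

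limma 3.58.1 (R 4.3.3) was fitted to the deposited log2 values of all 10 libraries with 4 group means, eBayes with trend, 6 residual and 3.31 prior degrees of freedom, and no further pseudocount. A gene was tested if 2 or more libraries exceeded 0 log2 RPKM (14787 genes). Tests were two-sided, adjusted by Benjamini and Hochberg over all tested genes in each of 5 comparisons, with a threshold of 0.05. "Called" means an adjusted p below it. The procedure was tested on simulated data. Fold changes are on the log2 RPKM scale. Reads of near-identical genes (Naip and Nlrp1 copies, Gbp genes) may have been split in counting.

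The members and gene lists were chosen with earlier results of these data known. Named were the 6 caspases, then of each list the genes called, at most 4 per comparison by p, or the 1 with the smallest p, and the 3 genes most like each caspase without predicted genes. Gsdme was found under its older symbol Dfna5. Besides T and NK cells, lists of B cell, plasmacytoid DC, monocyte and neutrophil, red pulp macrophage and erythroid markers were summed. Alternatives were no filter, a stricter filter (3 or more libraries exceeding 1 log2 RPKM), 1 RPKM added, quantile normalization, centring, only the compared groups, replicate blocks, voom, and leaving out each library. Where a pre-cDC2 library is left out, the spread of the lone one left is taken from the other groups. Promoter sequences are from RefSeq. Some genes of the lists are not reported here.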

Additional observations from a re-analysis of the deposited data

How the results depend on the processing

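Of 546 values for the 6 caspases under the alternatives, 506 kept direction and side of the threshold. Another 13 lost the call, 1 gained it and 26 changed sign. The gain was that of Casp6 between KO and WT in pre-cDC2 without WT replicate 3, with 1 WT library left in the group. For the other genes named, 938 of 1079 kept direction and side of the threshold. KO against WT in pre-cDC1 called 4 genes, but 19 with no filter, 18 with the stricter filter, 2 with 1 RPKM added, 9 with quantile normalization, 53 with only the compared groups, 0 with voom (1184 at an unadjusted p below 0.05) and 0 to 114 with 1 library left out. In pre-cDC2 it called 10, but 177 with no filter, 5 with 1 RPKM added, 0 with only the compared groups (651 unadjusted in limma), 4 with voom and 5 to 1048 with 1 library left out. Cell types in WT gave 1697 calls, but 701 with no filter, 460 with only the compared groups and 999 to 2722 with 1 library left out; in KO 3074, 1392 with no filter and 1418 to 3887. The interaction called 3, but 139 with no filter, 1 with the stricter filter, 6 with quantile normalization, 1 with voom and 0 to 495 with 1 library left out. The cause of these shifts was not tested.

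Deviations of same-numbered libraries from their group means correlated at -0.0301 to 0.0315 over all tested genes. With groups of 2 or 3 libraries this does not decide whether a number marks 1 mouse. With the replicate block by number, limma called 0 (1242 unadjusted), 2 and 0 (710 unadjusted) genes in pre-cDC1, pre-cDC2 and the interaction. With the block by genotype and number it called 217 in WT and 1094 in KO between the cell types, and 1 of 6 caspases, Casp6, kept its call, in KO (limma adjusted p = 0.0371). The others were at limma adjusted p = 0.0847 (Casp6) and 0.107 (Casp8) in WT and 0.0622 (Casp8) and 0.0622 (Casp9) in KO.

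The caspase calls between the cell types were all kept with quantile normalization, centring and voom. Signs also turned for small differences. With quantile normalization KO minus WT in pre-cDC1 was 0.005 for Casp6 and 0.008 for Casp8. Between the cell types in KO, Casp2 was -0.017 with quantile normalization, -0.189 with centring, and -0.046 and -0.040 with the 2 blocks, and Casp1 was -0.12 with centring and -0.024 with the block by number. Cradd in pre-cDC2 was 0.29 with the block by number and 0.009 with voom. Centring moved the median of all genes by -0.12 in WT and -0.19 in KO, and quantile normalization by -0.17 in KO. Higher and lower calls were 722 and 975 in WT (605 and 1110 with centring) and 1575 and 1499 in KO (1327 and 1943 with centring, 1359 and 1823 with quantile normalization). With 1 library left out, KO minus WT in pre-cDC1 ran from -0.081 to 0.046 for Casp6 and -0.11 to 0.11 for Casp8. In pre-cDC2 it ran from -0.85 to 0.45 for Casp1, -0.20 to 0.11 for Casp2, -0.89 to 0.43 for Casp6, -0.068 to 2.96 for Gbp2 and -0.33 to 0.31 for Cradd. Between the cell types it ran from -0.86 to 0.44 for Casp1, -0.21 to 0.39 for Casp4 and -1.08 to 0.49 for Ripk3 in WT, and from -0.18 to 0.32 for Casp1 and -0.12 to 0.13 for Casp2 in KO. The interaction ran from -0.37 to 0.93 for Casp1, -0.86 to 0.46 for Casp6, -0.16 to 2.86 for Gbp2 and -0.97 to 0.59 for Ripk3.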

Other observations

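Other marker lists gave these summed levels. Conventional DC markers were at 21222 to 31098 RPKM in pre-cDC1 libraries and 2857 to 8868 RPKM in pre-cDC2 libraries. B cell markers were at 345 to 692 RPKM and 1100 to 1715 RPKM, with Pax5 at 0 reads in 9 of 10 libraries, and plasmacytoid DC markers at 48.7 to 98.1 RPKM and 316 to 870 RPKM. Monocyte and neutrophil markers were at 199 to 222 RPKM and 125 to 220 RPKM, and red pulp macrophage markers at 7.71 to 21.8 RPKM and 9.09 to 21.9 RPKM.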
